A study of Homo sapiens with 6 samples.

Results

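Urokinase (PLAU), its receptor (PLAUR), tissue-type plasminogen activator (PLAT), the serpins SERPINE2 and SERPINB2, tissue factor (F3) and the Kunitz-type inhibitors TFPI and TFPI2 were followed by RNA-seq in the human prostate cancer line DU145. These 8 genes were found by symbol among the 60623 genes of the deposited count table, and each symbol matched 1 row. The tested libraries came from wild-type DU145 cells exposed for 24 h to CCS1477 at 1 µM, and the controls from the same line exposed to the solvent DMSO for 24 h, with 3 libraries in each group. CCS1477, also called inobrodib, binds the bromodomain of p300 and of CBP, related acetyltransferases that act as transcriptional coactivators. All cells were grown in RPMI-1640 medium with fetal bovine serum, and all libraries were made from poly-A RNA of 1 cell line. The labels do not say whether replicates were separate cultures, so the p-values reflect the spread among these libraries alone, and that spread may be technical. Because these were bulk samples, fewer cells of a kind and less RNA per cell cannot be told apart.

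Urokinase is a secreted serine protease that is held at the cell surface by its receptor, a GPI-anchored protein of the Ly6/uPAR family, and cleaves plasminogen to plasmin, which degrades fibrin and matrix. Serpins such as PAI-2 (SERPINB2) and protease nexin-1 (SERPINE2) trap the protease, and the complexes are taken up through LRP1. Tissue factor binds factor VII to start coagulation. TFPI blocks that complex and factor X, whereas TFPI2, a matrix-bound relative, inhibits plasmin and trypsin. Urokinase and its receptor are widely studied in the invasion of prostate cancer cells.

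Library totals ran from 8691382 to 9412867 counts with CCS1477 and from 8286880 to 11956734 with DMSO, and a floor of 3 counts corresponded to 0.312 to 0.343 CPM with CCS1477 and 0.256 to 0.368 CPM with DMSO. These floors cover counting error only. The epithelial genes EPCAM, KRT8, KRT18, KRT19 and CDH1 were expressed and the basal keratin KRT5 was listed at 0. Together these 6 epithelial genes summed to 2127 to 2259 TPM with CCS1477 and 2191 to 2492 TPM with DMSO; KRT19 (-0.34 ± 0.09) and CDH1 (-1.17 ± 0.10) fell on the log2 scale (SE; edgeR adjusted p = 0.0210 and 1.643e-05), and the part of this in the results was not tested. The luminal prostate genes KLK3 and KLK2 were also listed at 0 in every library, so these defining markers of luminal prostate cells were absent from a line labelled as prostate tissue. The leukocyte gene PTPRC and the endothelial gene PECAM1 were listed at 0, and lists of markers of fibroblasts, endothelium and white blood cells summed to at most 5.44, 0.05 and 3.23 TPM with CCS1477 and 10.99, 0.46 and 4.46 TPM with DMSO. Differential expression was tested over 14928 genes with the quasi-likelihood test of edgeR, and a gene was called at a Benjamini-Hochberg adjusted p under 0.05.

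Of the 8 genes, 7 passed the filter on low counts and 1, SERPINB2, had no count in any library. With CCS1477, 3 of the 7 tested genes fell (TFPI, PLAU and PLAUR) and 1 rose (TFPI2), while PLAT, F3 and SERPINE2 did not pass the threshold. Of all 14928 tested genes, 10.7% were called lower, 7.23% higher and 17.9% in either direction. TFPI had the largest log2 change of the 7 and stood at 35.9 ± 5.32 TPM with CCS1477 against 77.8 ± 8.92 TPM with DMSO, and PLAU stood at 369 ± 7.75 TPM with CCS1477 against 587 ± 27.2 TPM with DMSO (SD, n = 3 each). Both TFPI and PLAU kept their calls in every alternative fit and with each library left out. The calls of PLAUR and TFPI2 did not, as given with their values.

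Promoter sequence was examined because 4 of the 8 genes changed in one treatment and in 2 directions. RefSeq (GRCh38.p14) gave start-site windows for 7 of the 8 genes, PLAT being the gene without one, and PLAU and SERPINE2 had 2 windows each. The 250 bases upstream of each start were searched on both strands for the AP-1 motif TGANTCA, bound by FOS and JUN family proteins. Of the 9 windows of the 7 genes, it was present in 1 each of PLAUR, SERPINB2, F3 and TFPI2, and 6.57% of 35116 RefSeq windows of this length held it. Other motifs were searched in the same way, as given below, and enrichment was not tested. The RefSeq windows of PLAU, PLAUR, SERPINE2, SERPINB2 and TFPI lie inside the gene coordinates of the count data, and those of F3 and TFPI2 lie outside. The windows are shown 5′ to 3′ with the AP-1 match in capitals; those of TFPI and of the downstream PLAU start, the genes with the lowest adjusted p of the 8, are shown for comparison and hold no match.
PLAUR (chr19:43670170-43670419, minus strand): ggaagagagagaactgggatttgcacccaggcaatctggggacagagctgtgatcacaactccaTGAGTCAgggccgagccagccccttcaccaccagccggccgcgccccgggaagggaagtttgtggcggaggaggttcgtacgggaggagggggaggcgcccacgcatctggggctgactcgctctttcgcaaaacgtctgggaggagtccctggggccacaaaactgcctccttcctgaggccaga
SERPINB2 (chr18:63887455-63887704, plus strand): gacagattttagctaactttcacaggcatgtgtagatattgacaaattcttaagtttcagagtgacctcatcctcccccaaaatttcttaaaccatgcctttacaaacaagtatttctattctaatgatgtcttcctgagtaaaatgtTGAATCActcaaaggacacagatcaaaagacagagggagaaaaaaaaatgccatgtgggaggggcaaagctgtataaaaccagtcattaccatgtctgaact
F3 (chr1:94541760-94542009, minus strand): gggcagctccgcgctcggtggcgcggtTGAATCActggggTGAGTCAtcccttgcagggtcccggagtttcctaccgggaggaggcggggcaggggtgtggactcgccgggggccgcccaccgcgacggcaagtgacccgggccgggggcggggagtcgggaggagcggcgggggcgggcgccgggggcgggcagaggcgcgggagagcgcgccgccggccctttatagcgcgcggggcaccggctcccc
TFPI2 (chr7:93890754-93891003, minus strand): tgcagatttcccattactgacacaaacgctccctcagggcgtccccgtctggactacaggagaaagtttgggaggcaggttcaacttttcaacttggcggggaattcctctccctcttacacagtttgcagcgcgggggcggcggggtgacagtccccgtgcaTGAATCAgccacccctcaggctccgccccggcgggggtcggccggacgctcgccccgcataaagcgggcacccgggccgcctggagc
PLAU (chr10:73910882-73911131, plus strand): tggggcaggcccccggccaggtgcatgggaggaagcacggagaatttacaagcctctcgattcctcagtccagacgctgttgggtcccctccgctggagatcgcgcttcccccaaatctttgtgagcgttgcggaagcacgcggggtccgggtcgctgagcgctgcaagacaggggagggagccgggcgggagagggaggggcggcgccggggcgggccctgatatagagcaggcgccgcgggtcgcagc
TFPI (chr2:187554436-187554685, minus strand): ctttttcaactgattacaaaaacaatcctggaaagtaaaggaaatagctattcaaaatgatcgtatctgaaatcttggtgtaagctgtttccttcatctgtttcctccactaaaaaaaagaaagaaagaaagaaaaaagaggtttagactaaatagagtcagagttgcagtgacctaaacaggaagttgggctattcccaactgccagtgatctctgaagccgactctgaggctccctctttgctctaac

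The match lay at bases -186 to -180 of PLAUR, -102 to -96 of SERPINB2 and -87 to -81 of TFPI2, counted back from the start, and F3 held 2 matches, at -223 to -217 and -210 to -204. The genes with a match thus included 1 that fell (PLAUR), 1 that rose (TFPI2), 1 with no call (F3) and 1 with no count (SERPINB2). The TATA motif TATAAA was found in SERPINB2 and F3, against 10.7% of all windows, and the Sp1 motif GGGCGG in PLAU, SERPINE2, F3 and TFPI2, against 42.6%. The window of the downstream SERPINE2 start held 7 copies of CCAAT on either strand, a motif that 32% of all windows held at least once. G and C made up 38.4% of the TFPI window and 37.2% of the SERPINB2 window, and 78% of the F3 window, where the median of all windows was 58%. The E-box CACGTG was found in SERPINE2 (6.34% of all windows) and the NF-kB motif in TFPI2 (9.96%), whereas TGACGTCA (the CRE) and GGAATG (the TEAD motif) were in none of the 9 windows of these genes. All motifs were sought on both strands and no match overlapped another. A match describes these letters only.

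PLAU was the most abundant of the genes in every library. It reached 377, 361 and 369 TPM in CCS1477 libraries 1, 2 and 3, against 618, 578 and 565 TPM in DMSO libraries 1, 2 and 3. The highest CCS1477 library lay below the lowest DMSO library, as in 11.8% of tested genes on the TPM scale and 19.3% on the CPM scale. Normalised counts were 566 ± 16.7 CPM with CCS1477 and 936 ± 43.4 CPM with DMSO (SD, n = 3 each), a log2 change of -0.73 ± 0.08 (SE; edgeR adjusted p = 9.914e-05), and PLAU thus fell by 39.5%. Leaving out 1 library gave values from -0.75 to -0.70, and 7.17% of tested genes had a lower log2 fold change. PLAU ranked between 287 and 333 by TPM in the CCS1477 libraries and between 200 and 224 in the DMSO libraries. PLAU (ENSG00000122861) lies on chromosome 10 (73909177 to 73917496, plus strand). C10orf55 overlaps it on the other strand, and because the strandedness of the counting is not given, reads of the overlap cannot be told apart. C10orf55 had 5.23 ± 0.651 CPM with CCS1477 and 9.80 ± 0.553 CPM with DMSO (SD, n = 3 each).

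PLAT, the second plasminogen activator, which acts mainly on fibrin, was near the limit of detection. It had 15, 17 and 7 counts in CCS1477 libraries 1, 2 and 3, against 28, 32 and 28 counts in DMSO libraries 1, 2 and 3. In TPM these were 1.02, 1.04 and 0.51 with CCS1477, against 1.62, 1.3 and 2.27 with DMSO. The groups did not overlap, with CCS1477 below, as in 11.8% of tested genes on the TPM scale. The log2 change was -0.99 ± 0.39 (SE; edgeR adjusted p = 0.105), which did not pass the threshold in this or any alternative fit. The 95% interval ran from -1.75 to -0.22, at 7 to 32 counts a library. It is a normal interval, not widened for the few libraries or adjusted for testing many genes. PLAU exceeded PLAT by 347.5- to 724-fold in TPM with CCS1477 and by 249- to 445-fold with DMSO, so that urokinase was the main plasminogen activator transcript in both groups. PLAT (ENSG00000104368) lies on chromosome 8 (42174718 to 42207676, minus strand).

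PLAUR, the urokinase receptor, had 66.7, 65.1 and 71.6 TPM in CCS1477 libraries 1, 2 and 3, against 90.4, 85.1 and 75.03 TPM in DMSO libraries 1, 2 and 3. The groups did not overlap, with CCS1477 below, as in 11.8% of tested genes on the TPM scale. The closest pair was DMSO library 3 and CCS1477 library 3. On the count scale PLAUR had 51.5 ± 4.01 CPM with CCS1477 and 69.0 ± 3.55 CPM with DMSO (SD, n = 3 each), a log2 change of -0.42 ± 0.10 (SE; edgeR adjusted p = 0.0134). The call ended without CCS1477 1 (-0.38), CCS1477 2 (-0.39) or DMSO 1 (-0.37), and on the log2(TPM + 1) scale, where limma gave -0.29. The transcript ratio of ligand to receptor, PLAU over PLAUR in TPM, was 5.65, 5.55 and 5.16 with CCS1477, against 6.83, 6.79 and 7.53 with DMSO. PLAUR (ENSG00000011422) lies on chromosome 19 (43646095 to 43670547, minus strand).

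**Figure D1:**
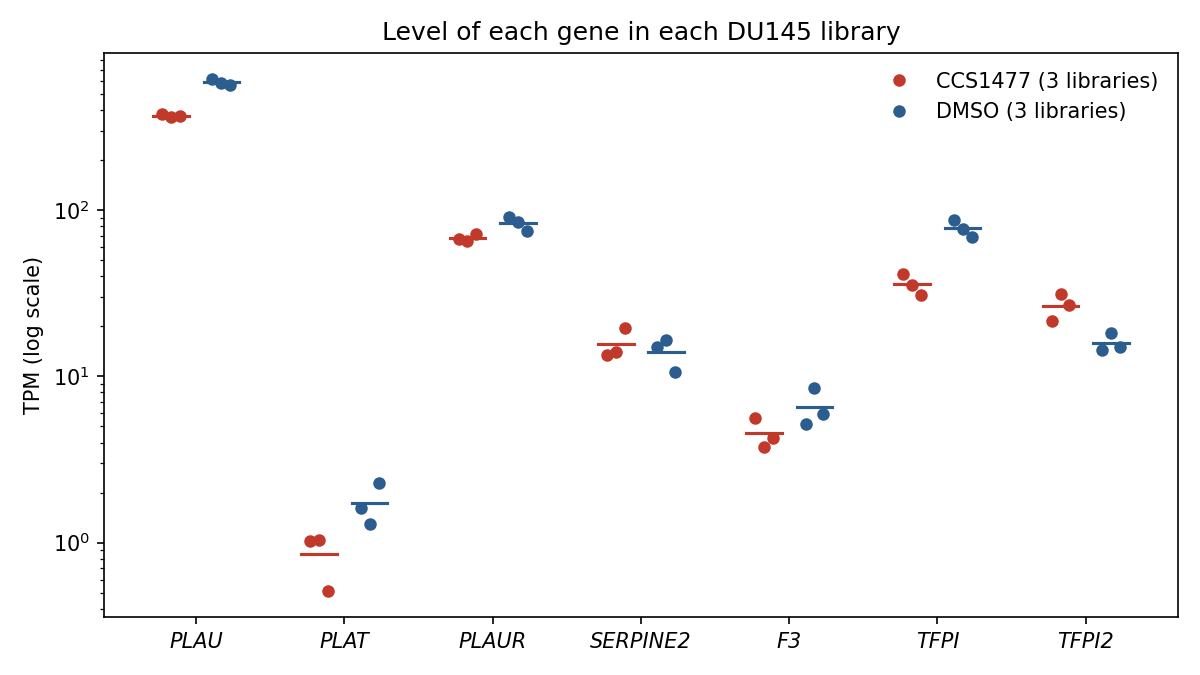
TPM of 7 genes (log axis) in each of 3 CCS1477 libraries (red) and 3 DMSO libraries (blue), with a line at each group's mean; SERPINB2, listed at 0 in all 6, is not drawn. PLAU stands highest in every library, TFPI lies at 30.7 to 41.3 TPM with CCS1477 and at 69.1 to 86.9 TPM with DMSO, and TFPI2 lies higher with CCS1477.

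Of the 2 serpins, 1 was expressed at a low level and 1 was not detected. SERPINE2, protease nexin-1, which also traps thrombin, had 13.5, 14.0 and 19.6 TPM in CCS1477 libraries 1, 2 and 3, against 15.01, 16.6 and 10.6 TPM in DMSO libraries 1, 2 and 3, and the groups overlapped. Its log2 change was 0.13 ± 0.16 (SE; edgeR adjusted p = 0.640), and the 95% interval ran from -0.19 to 0.44. The sign turned to -0.042 without CCS1477 3. SERPINB2, the gene of PAI-2, had 0 counts in all 6 libraries, which allows up to 0.343 CPM in a CCS1477 library and up to 0.368 CPM in a DMSO library. Of these 2 serpins, SERPINE2 was thus the one detected, in both groups. PLAU over SERPINE2 in TPM was 27.9, 25.8 and 18.9 with CCS1477, against 41.1, 34.9 and 53.4 with DMSO. SERPINE2 (ENSG00000135919) lies on chromosome 2 (223975045 to 224039318, minus strand). SERPINB2 (ENSG00000197632) lies on chromosome 18 (63871692 to 63903888, plus strand).

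Tissue factor (F3), the membrane receptor of factor VII, had 5.63, 3.76 and 4.24 TPM in CCS1477 libraries 1, 2 and 3, against 5.17, 8.56 and 5.98 TPM in DMSO libraries 1, 2 and 3. CCS1477 1 lay above DMSO 1, so the groups overlapped. The log2 change was -0.62 ± 0.23 (SE; edgeR adjusted p = 0.0843), and F3 did not pass in any alternative fit. Leaving out 1 library gave values from -0.78 to -0.41, the smallest fall being without DMSO 2, the library with the highest F3. F3 (ENSG00000117525) lies on chromosome 1 (94529173 to 94541759, minus strand).

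TFPI, the inhibitor of the tissue factor complex, had 41.3, 35.5 and 30.7 TPM in CCS1477 libraries 1, 2 and 3, against 86.9, 77.4 and 69.1 TPM in DMSO libraries 1, 2 and 3. Every CCS1477 value was lower than every DMSO value, as in 11.8% of tested genes on the TPM scale. In CPM it had 47.6 ± 4.92 with CCS1477 and 105 ± 8.27 with DMSO (SD, n = 3 each), a log2 change of -1.15 ± 0.11 (SE; edgeR adjusted p = 3.308e-05), that is, TFPI fell by 54.8%. It ranged from -1.22 to -1.08 with 1 library left out, and 2.93% of tested genes had a lower log2 fold change. By TPM, TFPI ranked between 3924 and 5023 in the CCS1477 libraries and between 1822 and 2120 in the DMSO libraries. TFPI (ENSG00000003436) lies on chromosome 2 (187464230 to 187565760, minus strand).

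TFPI2 was the 1 gene of the 8 that rose. It had 21.5, 31.4 and 26.8 TPM in CCS1477 libraries 1, 2 and 3, against 14.5, 18.2 and 14.96 TPM in DMSO libraries 1, 2 and 3, with no overlap, as in 16.2% of tested genes on the TPM scale and 16.5% on the CPM scale. In CPM it had 28.7 ± 3.45 with CCS1477 and 21.0 ± 1.08 with DMSO (SD, n = 3 each), a log2 change of 0.45 ± 0.13 (SE; edgeR adjusted p = 0.0349). The call ended without CCS1477 2 (0.38), CCS1477 3 (0.42) or DMSO 1 (0.41), with the replicate number as a block (0.44, adjusted p = 0.0539), and on the log2(TPM + 1) scale, where the difference was larger (0.70) but its adjusted p in limma was 0.0628. TFPI over TFPI2 in TPM was 1.93, 1.13 and 1.15 with CCS1477, against 6.02, 4.26 and 4.62 with DMSO, while F3 over TFPI was 0.136, 0.106 and 0.138 with CCS1477, against 0.0595, 0.111 and 0.0866 with DMSO. The first ratio did not overlap between groups and the second did. TFPI2 (ENSG00000105825) lies on chromosome 7 (93885396 to 93890753, minus strand).

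**Figure D2:**
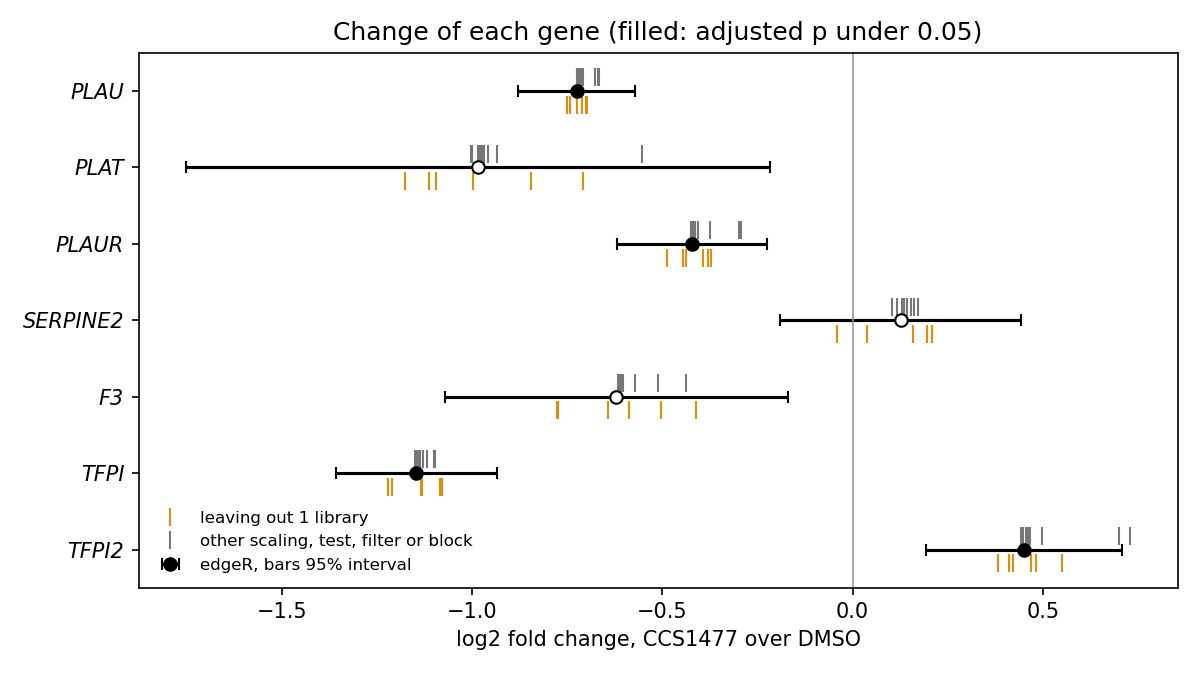
Log2 fold change of CCS1477 over DMSO for 7 genes, with bars for the 95% interval; filled points passed an adjusted p of 0.05 in edgeR. Orange ticks are fits with 1 library left out and grey ticks are other scalings, tests, filters or the replicate block; those of TFPI and PLAU stay near the point, and 1 orange tick of SERPINE2 lies below 0, at -0.042.

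In order of mean TPM the genes ran PLAU, PLAUR, TFPI, TFPI2, SERPINE2, F3 and PLAT in both groups. With CCS1477 the ranges of TFPI (30.7 to 41.3 TPM) and TFPI2 (21.5 to 31.4 TPM) overlapped, and those of PLAUR and TFPI did not. With DMSO the ranges of PLAUR (75.03 to 90.4 TPM) and TFPI (69.1 to 86.9 TPM) overlapped, as did those of TFPI2 (14.5 to 18.2 TPM) and SERPINE2 (10.6 to 16.6 TPM), and all other neighbours in the order stood apart.

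Counts and TPM gave different sizes for TFPI2 and PLAUR, and for these genes the counts per TPM, a measure that follows the transcript length assigned in the quantification, also differed between groups. Relative to the library median over 14823 genes, TFPI2 had 0.718 ± 0.0583 with CCS1477 and 0.838 ± 0.0548 with DMSO, and PLAUR had 0.4996 ± 0.0101 with CCS1477 and 0.521 ± 0.00528 with DMSO (SD, n = 3 each). The groups did not overlap for either gene, as in 12.7% of all genes. The difference for TFPI2 was -14.4%, and 14.7% of genes shifted by more. That of PLAUR was -4.04%, a common size, since 49.9% of genes shifted by more. These differences also enter the TPM ratios of TFPI to TFPI2 and of PLAU to PLAUR given above. The other 5 genes overlapped, PLAU having 1.01 ± 0.0116 with CCS1477 and 1.00 ± 0.0106 with DMSO.

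**Figure D3:**
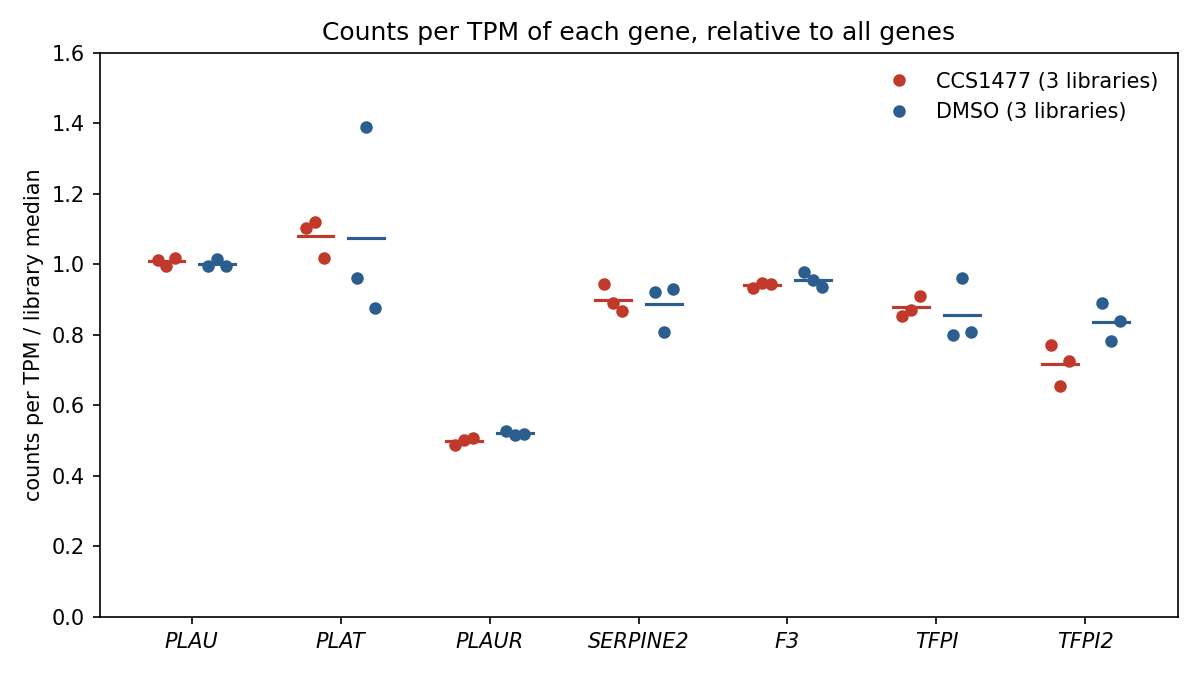
Counts per TPM of 7 genes, divided by the median over all genes of the same library, in 3 CCS1477 (red) and 3 DMSO (blue) libraries, with lines at the means. TFPI2 and PLAUR lie lower with CCS1477 without overlap; PLAT, with the fewest counts, spreads most, at 0.875 to 1.39 with DMSO.

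Other genes of these pathways were described with 9 lists, and values given as rising or falling at a number are log2 changes of CCS1477 over DMSO ± SE. The counts called in each list stand beside 10.7% of all tested genes called lower and 7.23% called higher, and no list was tested as a set. Among partners and clearance receptors of urokinase and its receptor, 8 of 13 tested genes fell and 2 rose. Their median log2 fold change was -0.38, beside -0.003 over all tested genes. LRP1, the uptake receptor of urokinase-serpin complexes, had 123 ± 13.1 CPM with CCS1477 and 228 ± 32.9 CPM with DMSO, a log2 fold change of -0.89 ± 0.12. The integrin subunit ITGA5, which pairs with ITGB1 as the fibronectin receptor and is a partner of the urokinase receptor, fell at -0.75 ± 0.09, ITGB5 at -0.56 ± 0.10 and the leukocyte-type subunit ITGB2 at -0.90 ± 0.16 (adjusted p between 0.0002002 and 0.002903 for these 4, edgeR). LRPAP1, the chaperone of LRP1, rose at 0.52 ± 0.10. ITGB3 rose at 0.78 ± 0.25 with an adjusted p = 0.0499 in edgeR, a call that ended in DESeq2, in limma-voom, with the replicate block and without CCS1477 1, CCS1477 3, DMSO 1 or DMSO 3. The genes lower in this list numbered 5 without DMSO 1, and the authors' TPM on the log2(TPM + 1) scale gave 3 called genes in limma, LRP1 (-0.70) and LRPAP1 (0.35) being among those that did not pass there. Among the genes named from the other lists, ENO1, MST1, SERPING1, THBD, PROS1, PROCR, APP, SPINT2, PAPLN, LYPD3 and LY6E also did not pass on that scale, each with the same direction.

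Of 9 tested genes of plasminogen activation, 3 fell and 1 rose, where 10.7% and 7.23% of all tested genes did (median -0.29). The cathepsins CTSB and CTSL, lysosomal proteases that can activate pro-urokinase, fell at -0.62 ± 0.08 and -0.81 ± 0.12, and ENO1, a glycolytic enzyme that also binds plasminogen at the cell surface, at -0.32 ± 0.07 (adjusted p between 0.0004106 and 0.009121, edgeR). The plasminogen receptor genes ANXA2, S100A10 and PLGRKT and the pro-urokinase activator ST14, named after their values were seen, did not pass, at -0.096, 0.24, -0.29 and -0.090. MST1, a plasminogen-related growth factor, rose at 1.08 ± 0.29, to 6.98 ± 0.901 CPM with CCS1477 against 3.35 ± 1.23 CPM with DMSO (SD, n = 3 each), and lost its call without CCS1477 2, CCS1477 3 or DMSO 1. PLG itself had at most 1 count in a library. Among inhibitors of urokinase and plasmin, 1 of 4 tested genes fell (median -0.03), SERPING1 (C1 inhibitor) at -1.11 ± 0.21, and SERPINB6, SERPINI1 and SERPINB8 stood at 0.26, 0.43 and -0.33 without passing. On log2(TPM + 1) the value of SERPING1 was -0.38, which did not pass. SERPINB6 passed without DMSO 3 and, with SERPINI1, under scaling by library size alone.

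In the coagulation and anticoagulant list, 5 of 12 tested genes fell and 0 rose (10.7% and 7.23% of all tested genes), with a median of -0.26. By DESeq2 4 were called. Thrombomodulin (THBD), which turns thrombin to protein C activation, had 4.43 ± 1.42 CPM with CCS1477 and 9.90 ± 1.62 CPM with DMSO (SD, n = 3 each), a log2 fold change of -1.16 ± 0.26. F13A1, a subunit of the fibrin-crosslinking factor XIII, protein S (PROS1) and the protein C receptor (PROCR) stood at -0.44 ± 0.12, -0.39 ± 0.11 and -0.38 ± 0.12. Those 3 calls were not stable: F13A1 lost its call without CCS1477 2, CCS1477 3, DMSO 1 or DMSO 2, PROS1 without CCS1477 2, CCS1477 3 or DMSO 1, and PROCR without any 1 library except DMSO 2. The list had 3 genes lower without CCS1477 1 or DMSO 2 and 1 lower without CCS1477 2, CCS1477 3 or DMSO 1. Factor VII, the partner of tissue factor, had 0 counts. Of the protease-activated receptors (2 tested, median -0.16), F2R and F2RL1 stood at -0.12 and -0.20 and did not pass (adjusted p = 0.573 and 0.349, edgeR), and F2RL1 stood at 0.084 on the log2(TPM + 1) scale.

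Among other serpins, SERPINA1 (alpha-1-antitrypsin) had 31.47 ± 4.502 CPM with CCS1477 and 94.98 ± 4.845 CPM with DMSO (SD, n = 3 each), a log2 fold change of -1.59 ± 0.12 (adjusted p = 5.515e-06, edgeR), while the collagen chaperone SERPINH1 stood at -0.23 and did not pass. These were the 2 tested genes of their list (median -0.91). The clade B serpins SERPINB6 and SERPINB8 were given above with the urokinase inhibitors. Of the 4 tested genes in the list of other clade B serpins (median -0.06), SERPINB7 fell at -2.35 ± 0.54. It had 0.554 ± 0.493 CPM with CCS1477 and 2.89 ± 0.794 CPM with DMSO (SD, n = 3 each). CCS1477 libraries 1, 2 and 3 had 1.12, 0.312 and 0.229 CPM, with libraries 2 and 3 at or below the floor of 3 counts. SERPINB7 thus met the low-count filter through its DMSO libraries, and the size of its fall is uncertain. Its call ended without CCS1477 2 or CCS1477 3. SERPINB1, SERPINB5 and SERPINB9 lay between -0.19 and 0.09 and did not pass. Of 6 other Kunitz-type inhibitor genes, 2 fell and 1 rose, where 10.7% and 7.23% of all tested genes did (median -0.15). APP, whose longer isoforms carry a Kunitz domain, fell at -0.44 ± 0.07 and the hepsin and matriptase inhibitor SPINT2 at -0.39 ± 0.10, PAPLN rose at 0.43 ± 0.13, and APLP2 stood at 0.17 without passing. SPINT2 lost its call without CCS1477 1, CCS1477 2 or DMSO 1, and PAPLN without CCS1477 1, CCS1477 2, DMSO 1 or DMSO 3. Of 8 other Ly6/uPAR family genes (median -0.16), LYPD3, a urokinase receptor relative, fell at -0.83 ± 0.15 and LY6E at -0.28 ± 0.09, while LY6K and PSCA stood at -0.54 and 0.51 without passing. LY6E lost its call in most alternatives, among them DESeq2 and each library left out except DMSO 3, and LY6K passed in DESeq2, with no filter and without DMSO 2.

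**Figure D4:**
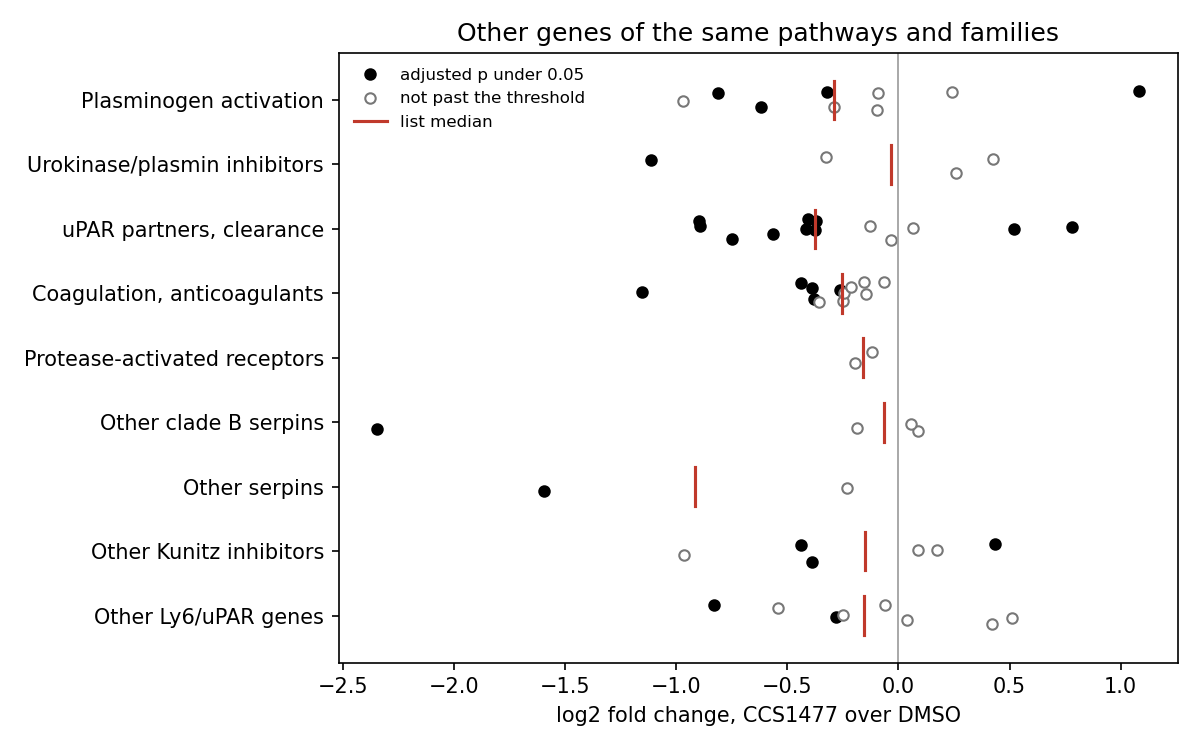
Log2 fold change of CCS1477 over DMSO for the tested genes of 9 lists (1 point per gene, spread vertically for legibility; filled where the edgeR adjusted p was under 0.05), with red lines at list medians. Most filled points of the uPAR partner list lie below 0, down to -0.90.

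The genes lie on separate chromosomes except SERPINE2 and TFPI, both on chromosome 2. Of 51 tested genes that overlap one of them or lie within 250000 bases, 3 rose, 4 fell and 44 did not pass, where 7.23% of all tested genes were called higher and 10.7% lower, and the neighbours' median log2 fold change was 0.10. These counts were no higher than the shares over all tested genes. Near PLAU, the overlapping C10orf55 fell at -0.90 ± 0.20, while ZSWIM8, a ubiquitin ligase adaptor 107380 bases upstream, and NDST2, a heparan sulfate sulfotransferase 97379 bases upstream, rose at 0.66 ± 0.09 and 0.82 ± 0.17. CAMK2G, 34586 bases upstream, and VCL, 77697 bases downstream, both named after their values were seen, did not pass, at -0.15 and -0.12. Near PLAUR, the potassium channel KCNN4, 95986 bases upstream, had 3.16 ± 1.35 CPM with CCS1477 and 15.3 ± 3.18 CPM with DMSO (SD, n = 3 each) and fell at -2.27 ± 0.29, and LYPD3 lies 180487 bases downstream. SERPINB7 lies 66316 bases upstream of SERPINB2. ABCD3, 10507 bases from F3, rose at 0.41 ± 0.10, without a call when CCS1477 1 or DMSO 1 was left out. No tested gene lay within this distance of TFPI, and none of 2 near TFPI2, 3 near SERPINE2 or 6 near PLAT passed in edgeR. Without DMSO 3 the neighbours called numbered 13, of which 9 rose, and on the log2(TPM + 1) scale the 2 called were KCNN4 and SERPINB7.

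**Figure D5:**
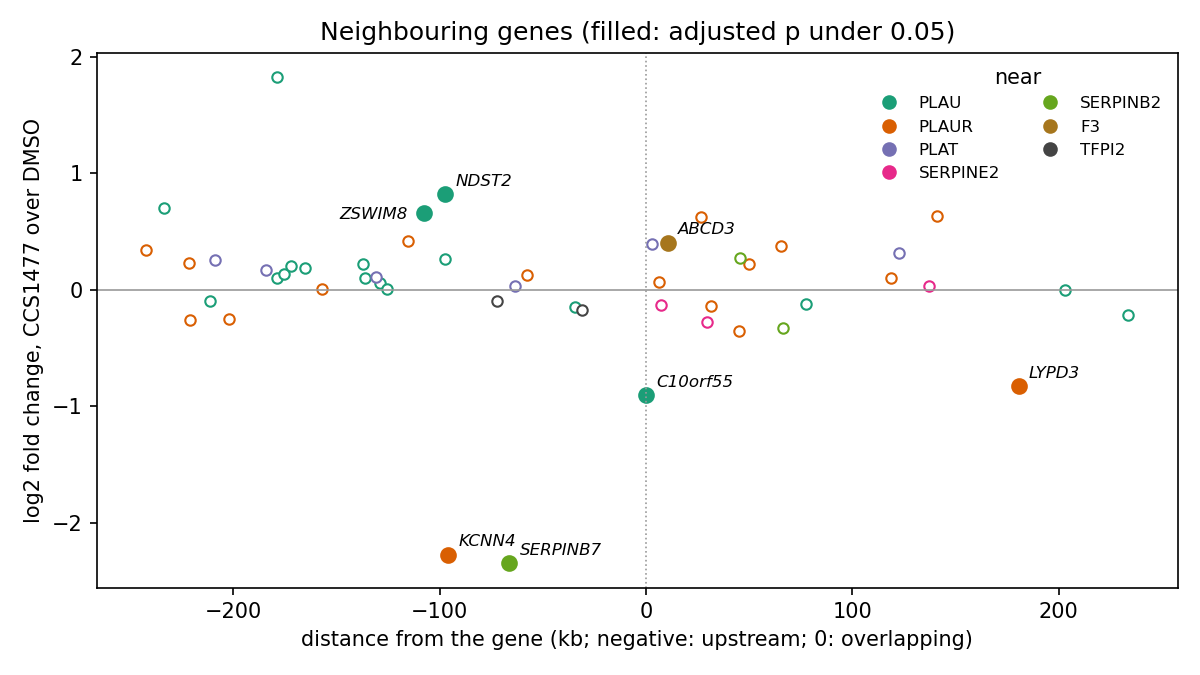
Log2 fold change of CCS1477 over DMSO of 51 tested neighbouring genes against their distance in kb from the gene named in the legend (negative is upstream, 0 is overlapping); filled points passed an adjusted p of 0.05 in edgeR. The 7 filled points include KCNN4 and SERPINB7 at -2.27 and -2.35, while most open points lie close to 0. SERPINB7 stood at or below the floor of 3 counts in CCS1477 libraries 2 and 3.

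Across the 6 libraries, log2 CPM of PLAU correlated at r = 0.96 with TFPI, 0.95 with PLAUR and -0.90 with TFPI2, as a description over points that share the same libraries, treatments and scaling. Among 11937 genes with at least 5 CPM on average, the profiles most like PLAU were SH2D5 (r = 0.998) and CARD8 (0.998), and those most like TFPI were C1orf116 (0.999) and NT5E (0.999). PLAUR was most like SLC19A1 (0.998) and ERVMER34-1 (0.995), TFPI2 most like ZNF45 (0.993) and ZNF48 (0.992), F3 most like SEC62 (0.996) and FMNL2 (0.987), and SERPINE2 most like DHX30 (0.981) and ZNF672 (0.975). Over these 6 libraries, values above 0.9 were many for PLAU (1059 of the 11937 genes compared) and fewer for SERPINE2 (47).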

How the data were processed

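Poly-A RNA-seq of 6 DU145 libraries (3 with CCS1477, 3 with DMSO) was used, with groups and replicate numbers from the sample titles. The authors deposited estimated counts per gene, not normalized and not always whole (10.2% to 10.7% of nonzero values), and TPM, which summed to about 1000000 in each library per the deposited values. Per the submitters' processing notes, Trimmomatic 0.39 was among the tools. For the aligner, quantifier, genome build and strandedness, nothing was given in the sources used here. Coordinates are those of the files; the 8 genes lay on the same chromosomes in GENCODE 29 (GRCh38), with ends within 515 bases.

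Estimated counts were rounded. Genes were filtered with filterByExpr (minimum count 10, minimum total 15), scaled by TMM and tested on all 14928 kept genes with edgeR 4.0.16 (R 4.3.3), quasi-likelihood test, Benjamini-Hochberg adjustment, threshold 0.05, no covariates. SEs were derived from the test statistic, and CPM use TMM-scaled totals. limma 3.58.1 and DESeq2 1.42.0 served as alternatives, and matplotlib 3.10.9 drew the figures. The fit was tested on simulated data. The genes named are the 8, per list up to 4 of lowest adjusted p and up to 2 more called the opposite way, neighbours past the threshold, and the 2 most correlated genes of each with at least 5 CPM. The 8 genes and the lists were chosen with earlier results of these data known. No 2 libraries of the same group agreed within sampling noise over genes with at least 5 CPM on average (chi-square per degree of freedom of 3.41 or more).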

Additional observations from a re-analysis of the deposited data

How the results depend on the processing

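PLAU, TFPI, PLAT and F3 kept their direction and side of the threshold in all 16 alternatives. PLAUR stood at -0.29 and -0.30 in limma on log2(TPM + 1) and log2(TPM + 0.1), and at -0.42 with an adjusted p above the stricter threshold of 0.01; TFPI2 stood at 0.70 and 0.73 on those scales, at 0.45 under the stricter threshold and at 0.44 with the replicate block, without passing in any of these. With 1 library left out, PLAUR ran from -0.49 to -0.37, TFPI2 from 0.38 to 0.55 and SERPINE2 from -0.042 to 0.21, the -0.042 being without CCS1477 3. Of the 8 genes, 0 were called higher on both TPM scales, under the stricter threshold and with the block, and 0 to 1 with 1 library left out; 2 to 3 were called lower with 1 left out. Over all genes, limma called 293 higher and 427 lower on log2(TPM + 1), and 280 and 410 on log2(TPM + 0.1); the stricter threshold called 380 and 852, and leaving out 1 library 487 to 1311 higher and 925 to 1772 lower. The causes were not tested.

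Called genes per list also moved. On both TPM scales they numbered 2 for plasminogen activation, 0 for urokinase inhibitors, 3 for receptor partners, 1 for coagulation, 0 for Kunitz inhibitors, 0 for Ly6/uPAR genes and 2 for neighbours. The stricter threshold gave 1 for coagulation, 0 for clade B serpins, 1 for Kunitz inhibitors and 1 for Ly6/uPAR genes, and the replicate block 3 for coagulation and 1 for Ly6/uPAR genes. Library-size scaling gave 3 urokinase inhibitors, 3 coagulation genes and 1 Ly6/uPAR gene, DESeq2 size factors and the 1 CPM filter 1 Ly6/uPAR gene each, and no filter 2 urokinase inhibitors and 12 neighbours. With 1 library left out the ranges were 1 to 2 urokinase inhibitors, 6 to 9 receptor partners, 1 to 6 coagulation genes, 0 to 1 clade B serpins, 1 to 3 Kunitz inhibitors, 1 to 2 Ly6/uPAR genes and 6 to 13 neighbours. F2RL1 turned to 0.084 and 0.088 on the TPM scales, and SERPINB5 to -0.12 without CCS1477 1 and -0.026 without DMSO 2 (0.23 at most).

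The labels do not say whether same-numbered libraries were paired. Deviations from the group means of same-numbered libraries correlated at -0.11, -0.325 and 0.039, and none of the 6 libraries correlated best with its own number. With 3 libraries a group, whose deviations sum to 0, these values cannot show how the libraries were prepared. The block lowered the genes called to 799 higher and 1306 lower, against 1079 and 1597. The lowest counts were those of PLAT, 7 to 32 a library, and SERPINB2, 0 in each.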
